A study of Mus musculus with 27 samples.

Results

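The 10 genes described here encode matrix metalloproteinases (MMPs) and their inhibitors in cultured mouse macrophages: Mmp8, Mmp9, Mmp10, Mmp12, Mmp13, Mmp14, Mmp19, Timp1, Timp2 and Timp3. They were chosen by name, with earlier results of these data known, and all 10 have a row among the 50559 genes of the count table. The filter on low counts left 9 of them for testing, all but Timp3. The study asked how macrophages respond to what malignant peripheral nerve sheath tumor (MPNST) cells release, and whether TRAP1, a chaperone of mitochondria, has a part in that response. Macrophages were grown from the bone marrow of C57BL/6 mice of 3 to 4 months, described as female, that were wild type (WT) or TRAP1 knockout (KO). All cultures received medium conditioned by L929 fibroblasts as their source of M-CSF. They were left unpolarized (M0) or given IL-4 at 10 ng/ml for 24 h (M2), and were then kept for 48 h in control medium (DMEM) or in MPNST-CM, medium conditioned by the murine line sMPNST, whose cells of origin lacked Nf1 and p53. Cell state, medium and genotype make 8 groups of 3 batch 1 libraries each. The tumor is thus represented by the conditioned medium of 1 cell line. The sources used here do not say whether the 3 libraries of a group came from separate mice, so p-values measure the spread between libraries, which may be technical in part.

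MMPs are zinc-dependent proteases that cut collagens, elastin and other parts of the extracellular matrix, and that also release or inactivate growth factors and cytokines. They are made as inactive proenzymes, which other proteases such as plasmin or furin-like convertases switch on. The tissue inhibitors of metalloproteinases (TIMPs) bind the active enzymes, and the balance of both groups sets how much matrix is cut. Macrophages are a known source of both, and in tumors the family is studied for its part in invasion and vessel growth. RNA levels report neither secretion nor activation of the proteins. Mmp8, Mmp9, Mmp10 and Timp1 were among the genes or proteins the study itself examined. It examined Mmp8 and Mmp10 on these libraries, so the changes of these 2 here are not independent of it. The paper listed both among factors raised by MPNST-CM in M0 cells, and Mmp10 in M2 cells. It described this signature as abolished by TRAP1 ablation. Here Mmp8 rose in M0 cells of both genotypes and stayed lower in KO than in WT, as given below. By RT-qPCR the paper reported that MPNST-CM raised Mmp9 mRNA in M0 and M2 cells and that TRAP1 loss strongly prevented the rise. By Western blot it reported a TRAP1-dependent rise of MMP-9 protein in both states. It also listed MMP-9 among proteins released by TRAP1-expressing M2 cells. Dimethyl-succinate, a cell-permeable succinate analogue, raised Mmp9 mRNA in KO cells in MPNST-CM, and MMP-9 protein in M2 cells. Media of other MPNST lines were reported to act similarly. In these libraries Mmp9 fell with MPNST-CM in WT cells and was higher in KO, as given below.

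Levels are given as CPM, a gene's counts scaled to the size of its library, which was 7037684 to 9089792 counts. Fewer than 3 counts, or 0.324 to 0.451 CPM, was taken as not detectable. A difference was called at an edgeR adjusted p under 0.05 over all 13614 genes tested. Trap1 had no count in the 12 KO libraries and 83 to 144 counts in the 12 WT libraries. Xist, which is transcribed from the inactive X chromosome, had 2079 to 4010 counts in WT and 0 to 9 in KO, although all mice are described as female. In every comparison of KO with WT, the TRAP1 genotype and what this Xist difference marks cannot be told apart. The 8 macrophage markers were all detected and summed to 9180 to 12850 CPM, whereas 8 fibroblast markers summed to at most 4.65 CPM and 7 Schwann cell markers to at most 10.8 CPM. Batch 2 holds 3 more libraries, which are described last, and 2 of them stand far apart from their groups.

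Mmp8, Mmp10, Mmp12 and Mmp13 belong to 1 cluster on chromosome 9, whose genes follow each other in RefSeq as Mmp13, Mmp12, Mmp1b, Mmp3, Mmp1a, Mmp10, Mmp8, Mmp27, Mmp20 and Mmp7. Because these 4 members moved differently, their sequences from base 150 to base 20 before the RefSeq start are printed here (GRCm38.p6), with the AP-1 motif TGANTCA, a site for Fos and Jun proteins, in capitals. For Mmp12, which has 2 starts, the stretch before the second start is shown, and the stretch of Mmp8 holds no such motif.
Mmp13, chr9:7272364-7272494, plus strand: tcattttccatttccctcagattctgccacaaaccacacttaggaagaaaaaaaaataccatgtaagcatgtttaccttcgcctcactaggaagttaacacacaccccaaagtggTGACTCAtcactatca
Mmp12, chr9:7347224-7347354, plus strand: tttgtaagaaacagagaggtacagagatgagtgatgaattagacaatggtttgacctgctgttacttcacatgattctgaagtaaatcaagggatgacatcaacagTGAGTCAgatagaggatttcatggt
Mmp10, chr9:7502192-7502322, plus strand: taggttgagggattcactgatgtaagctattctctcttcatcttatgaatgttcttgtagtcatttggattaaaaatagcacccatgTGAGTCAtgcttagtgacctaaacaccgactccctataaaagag
Mmp8, chr9:7558279-7558409, plus strand: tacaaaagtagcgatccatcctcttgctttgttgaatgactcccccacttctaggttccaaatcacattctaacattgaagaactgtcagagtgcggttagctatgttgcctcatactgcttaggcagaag

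RefSeq promoters were found for 8 of the 10 members (9 starts), and Mmp9 and Mmp19 had no entry. Motifs were searched on both strands in the 250 bases before each start. TGANTCA began 35 bases before the start of Mmp13, 44 before the second start of Mmp12 and 63 before the start of Mmp10. It was not found before the first start of Mmp12, or before Mmp8, Mmp14 or a Timp gene, while 6.75% of 32851 promoters held it. The Ets motif AGGAAG was found before Mmp8, Mmp12 (its first start), Mmp13, Mmp14, Timp1 and Timp3 and in 29.5% of all promoters. ACGTG, the core of the HIF site, was found before Mmp14 and Timp1 and in 16.6% of all promoters, and the TATA box letters TATAAA before Mmp10 and Mmp13 and in 12.4%. The STAT6 motif TTCNNNNGAA was in none of these windows and in 5.85% of all promoters. None of the matches in the members overlap each other, and a match describes letters only.

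Mmp10 passed the filter through 1 group only, so it is left out of the counts and medians that follow and described on its own. MPNST-CM changed most of the other 8 tested members in M0 and M2 cells, and the direction depended on the gene. In WT M0 cells 7 of 8 were called, against 21.2% of all genes: Mmp8, Mmp13, Mmp19 and Timp1 rose, and Mmp9, Mmp12 and Mmp14 fell. In KO M0 cells 7 of 8 were called, against 32.9%, with Mmp8, Mmp13 and Mmp19 higher and Mmp9, Mmp12, Mmp14 and Timp2 lower. In WT M2 cells 7 of 8 were called, against 24.5%: Mmp19 rose, and Mmp8, Mmp9, Mmp12, Mmp14, Timp1 and Timp2 fell. In KO M2 cells 5 of 8 were called, against 36.8%, with Mmp19 higher and Mmp8, Mmp12, Mmp14 and Timp2 lower. Mmp12 and Mmp14 therefore fell, and Mmp19 rose, in all 4 responses. The median log2 fold changes of the 8 members were 0.36, -0.29, -0.58 and -0.49 in these responses, and those of all genes were -0.02, -0.04, -0.03 and -0.01.

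KO and WT macrophages also differed in most members in control medium. In DMEM, 6 of the same 8 were called in M0 cells, against 16.6% of all genes, with Mmp9, Mmp14 and Timp2 higher and Mmp8, Mmp12 and Mmp13 lower in KO. In M2 cells in DMEM 6 were called, against 16.4%, with Mmp9 and Timp2 higher and Mmp8, Mmp12, Mmp13 and Mmp14 lower. In MPNST-CM, 7 were called in M0 cells, against 38.2%: Mmp9 and Mmp19 were higher in KO, and Mmp8, Mmp12, Mmp13, Mmp14 and Timp1 lower. In M2 cells in MPNST-CM 5 were called, against 34%, with Mmp9 higher and Mmp8, Mmp12, Mmp13 and Mmp14 lower. Mmp9 was thus higher, and Mmp8, Mmp12 and Mmp13 lower, in KO in all 4 comparisons. These comparisons use the same 8 groups as those of the medium and are not independent of them.

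M2 cells had more of most members than M0 cells. In DMEM, 8 members were called in WT, all higher in M2, against 37.2% of all genes, and 8 in KO, against 28.5%, of which Mmp14 alone was lower in M2. In MPNST-CM, 7 were called in WT, against 24.9%, and 7 in KO, against 11.2%, and in both Mmp8 alone was lower in M2. Differences between responses were tested as interactions. The response to MPNST-CM differed between genotypes for 6 members in M0 cells, against 19.7% of all genes, and for 3 in M2 cells, against 20.2%. It differed between M2 and M0 cells for 7 members in WT, against 12.1%, and for 5 in KO, against 11.5%.

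**Figure D1:**
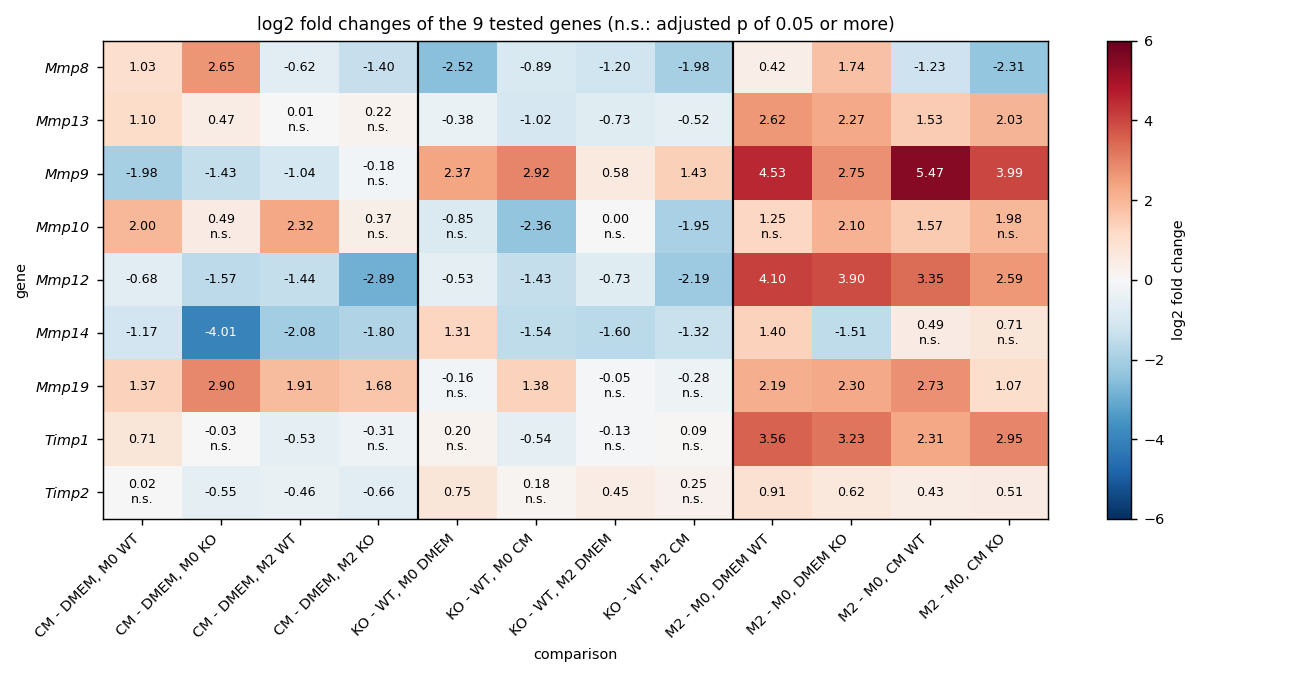
Heat map of log2 fold changes of the 9 tested members (rows) in 12 comparisons (columns), red where higher and blue where lower in the group named first, with n.s. where the adjusted p was 0.05 or more. Mmp12 and Mmp14 were lower and Mmp19 higher in all 4 responses to MPNST-CM, and Mmp8 changed sign between the M0 and M2 responses. Mmp10 passed the filter through WT M2 cells in MPNST-CM only, which bears on its values against that group.

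**Figure D2:**
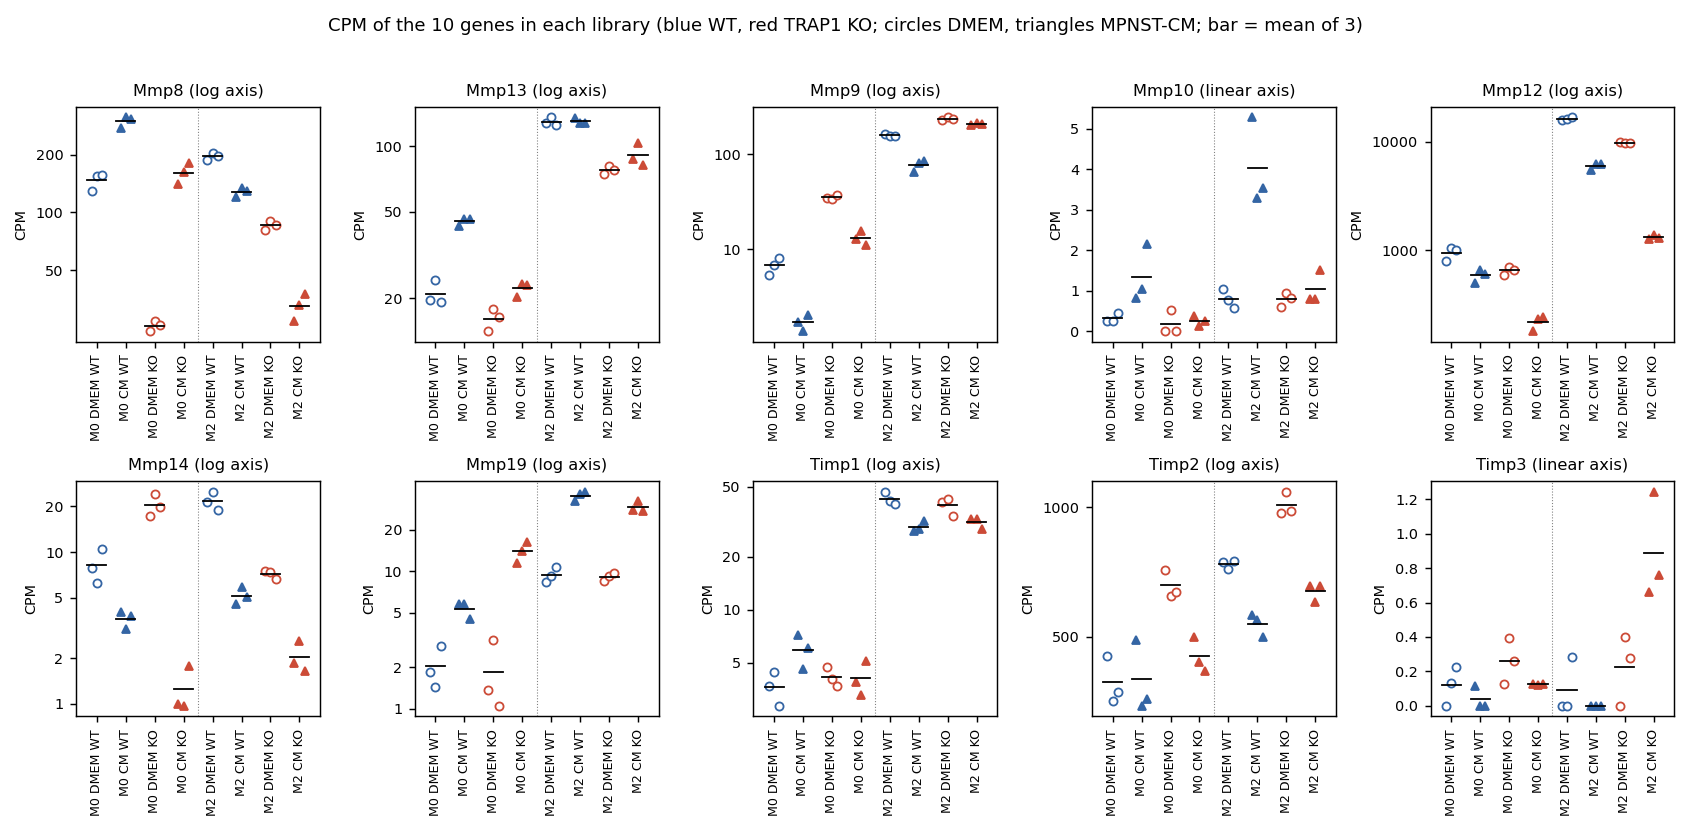
CPM of the 10 members in each batch 1 library (points) and the mean of 3 libraries (bars) by group, with WT in blue, TRAP1 KO in red, DMEM as open circles and MPNST-CM as filled triangles. Axes are logarithmic except for Mmp10 and Timp3, which have libraries at 0 and are on linear axes, and Mmp9, Mmp12, Mmp13 and Timp1 are seen at higher levels in M2 than in M0 groups.

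Mmp8, a collagenase best known from neutrophils, rose in M0 and fell in M2 cells. In M0 cells of WT it stood at 130, 155 and 156 CPM in DMEM and at 276, 314 and 309 CPM in MPNST-CM. In M0 cells of KO it stood at 24.01, 27.1 and 25.8 CPM in DMEM and at 141, 162 and 182 CPM in MPNST-CM. KO cells thus started far below WT and rose more, without reaching WT in MPNST-CM. The log2 fold change was 1.03 ± 0.10 (SE) in WT and 2.65 ± 0.11 in KO, and the difference between them was 1.63 ± 0.15 (adjusted p = 4.09e-09). In M2 cells WT libraries had 188, 205 and 196 CPM in DMEM and 120.4, 134 and 129.6 CPM in MPNST-CM, and KO libraries had 81.05, 90.2 and 85.9 CPM and 27.1, 32.99 and 37.3 CPM. All 4 pairs of media were free of overlap. The log2 fold changes in M2 cells were -0.62 ± 0.10 in WT and -1.399 ± 0.11 in KO, with an interaction of -0.78 ± 0.15 (adjusted p = 0.000313). M2 and M0 responses differed by -1.65 ± 0.14 in WT and -4.05 ± 0.16 in KO. Ordered by mean, the groups spanned 11.7-fold, and the neighbours that overlapped were WT M2 in MPNST-CM with WT M0 in DMEM, and the latter with KO M0 in MPNST-CM.

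Neutrophils store Mmp8 and Mmp9 protein, so their markers are given here. The 12 neutrophil markers summed to 15.6 to 22.4 CPM in WT M0 DMEM, 11.4 to 13.9 in WT M0 MPNST-CM, 18.01 to 23.8 in KO M0 DMEM and 10.7 to 12.1 in KO M0 MPNST-CM. In M2 cells they summed to 27.2 to 35.3 CPM in WT DMEM, 11.1 to 15 in WT MPNST-CM, 24.2 to 27.3 in KO DMEM and 8.73 to 9.998 in KO MPNST-CM. The sum was lower in MPNST-CM in all 4 pairs, but its members did not move as one. Of 5 tested, MPNST-CM raised 1 and lowered 1 in WT M0 cells, raised 2 and lowered 1 in KO M0 cells, lowered 3 in WT M2 cells and raised 1 and lowered 3 in KO M2 cells, against 21.2%, 32.9%, 24.5% and 36.8% of all genes called. The medians were -0.25, 1.33, -0.78 and -1.25. S100a9, which encodes a calcium-binding protein of neutrophils, rose with Mmp8 in M0 cells, by 0.84 ± 0.29 in WT and 1.33 ± 0.43 in KO, and Ly6g rose in KO by 4.21 ± 0.74, to 1.87 CPM. Csf3r, the G-CSF receptor gene, fell in M0 cells, with log2 fold changes of -1.66 ± 0.24 in WT and -1.78 ± 0.22 in KO, from 10.8 and 18.8 CPM. Between 4 and 7 of the 12 markers stayed under 3 counts in all libraries of a group, and Camp and Retnlg never passed 2 counts. The part of these markers in the results for Mmp8 and Mmp9 was not tested. In bulk RNA, fewer cells of a type and less RNA per cell cannot be told apart.

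Mmp13, collagenase 3, also rose in M0 cells. WT M0 libraries had 19.6, 24.2 and 19.2 CPM of Mmp13 in DMEM and 43.2, 46.1 and 46.2 CPM in MPNST-CM, and KO M0 libraries 14.1, 17.8 and 16.4 CPM and 20.4, 23.4 and 23.1 CPM. Media did not overlap in either genotype, and the rise was 1.105 ± 0.11 in WT and 0.47 ± 0.11 in KO, a difference of -0.64 ± 0.16 (adjusted p = 0.00347). M2 levels were higher, at 128, 136 and 125 CPM in WT DMEM, 134, 128 and 128 CPM in WT MPNST-CM, 74.6, 81.3 and 78.05 CPM in KO DMEM and 87.2, 104 and 81.6 CPM in KO MPNST-CM. Neither M2 response was called, with 0.01 ± 0.10 in WT and 0.22 ± 0.10 in KO (adjusted p = 0.0796), although the KO response was called without M2_CM_KO replicate 3 (0.29, adjusted p = 0.0356). KO was below WT in all 4 settings, from -0.38 ± 0.11 in M0 DMEM to -1.02 ± 0.11 in M0 MPNST-CM. The M0 DMEM difference (adjusted p = 0.0191) lost its call without M0_DMEM_KO replicate 1 (adjusted p = 0.1197) or without M0_DMEM_wt replicate 2 (adjusted p = 0.157).

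Mmp9, gelatinase B, which cuts denatured and basement membrane collagen, separated all 8 groups: no neighbours in the order of means overlapped, over a 138-fold range. How many of all genes do the same was not counted. WT M0 libraries had 5.397, 6.91 and 8.202 CPM in DMEM and 1.74, 1.38 and 2.05 CPM in MPNST-CM, where counts were only 15, 12 and 19. KO M0 libraries had 34.8, 34.2 and 37.4 CPM in DMEM and 12.9, 15.6 and 11.1 CPM in MPNST-CM. Mmp9 fell in both genotypes, with log2 fold changes of -1.98 ± 0.20 and -1.43 ± 0.13. The difference of 0.55 ± 0.24 was not called (adjusted p = 0.112), except without M0_DMEM_wt replicate 1 (0.70, adjusted p = 0.0397). M2 libraries had 163, 157 and 157 CPM in WT DMEM and 64.7, 81.97 and 85.9 CPM in WT MPNST-CM, against 229.9, 246 and 237 CPM in KO DMEM and 204, 216 and 208 CPM in KO MPNST-CM. The M2 response was -1.04 ± 0.11 in WT and -0.18 ± 0.11 in KO, the latter not called (adjusted p = 0.184) although its media did not overlap, and the responses differed by 0.85 ± 0.15 (adjusted p = 0.000131). Mmp9 was 5.16-fold higher in KO than in WT in M0 DMEM and 7.57-fold in M0 MPNST-CM, and 1.49-fold and 2.697-fold higher in M2 cells.

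Mmp10, stromelysin 2, which can activate other MMP proenzymes, was scarce, and 6 of its 24 libraries were under 3 counts. It passed the filter only through WT M2 cells in MPNST-CM, with 42, 27 and 28 counts (5.28, 3.29 and 3.52 CPM), against 7, 6 and 4 counts (1.05, 0.777 and 0.562 CPM) in DMEM. WT M0 cells had 2, 2 and 4 counts in DMEM and 7, 9 and 20 in MPNST-CM (0.8105, 1.04 and 2.16 CPM). KO M0 cells had 0, 4 and 0 counts in DMEM and 3, 1 and 2 in MPNST-CM, and KO M2 cells 4, 7 and 6 and 6, 7 and 12. Libraries of WT cells in the 2 media did not overlap in either state. Since Mmp10 was tested only because the WT M2 MPNST-CM group is high, its differences from that group were favoured by the filter and are given without a test, as log2 values of 2.32 ± 0.49 against DMEM, -1.95 ± 0.46 for KO against WT and 1.57 ± 0.44 for M2 against M0. In WT M0 cells the change was 2 ± 0.61 (adjusted p = 0.0195), and KO M0 cells in MPNST-CM differed from WT by -2.36 ± 0.65 (adjusted p = 0.00489). In KO the changes of 0.37 ± 0.56 in M2 and 0.49 ± 0.94 in M0 cells were not called, and neither was the genotype difference in the M0 response, -1.51 ± 1.23 (adjusted p = 0.464).

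The Mmp10 calls that do not use the WT M2 MPNST-CM group were not stable. With only the compared groups in the fit, Mmp10 failed the filter and none of the 3 could be made. The call for the WT M0 response was lost without M0_CM_wt replicate 3 (1.47, adjusted p = 0.156), without M0_DMEM_wt replicate 1 (adjusted p = 0.0704) or without M0_DMEM_wt replicate 2 (adjusted p = 0.0695). The M0 genotype difference in MPNST-CM was lost without M0_CM_wt replicate 3 (-1.83, adjusted p = 0.0511). KO M2 cells in DMEM were above KO M0 cells by 2.104 ± 0.78, a call lost without M0_DMEM_KO replicate 1 or 3 or M2_DMEM_KO replicate 2 or 3 (adjusted p of 0.0847 to 0.168). The M0 DMEM genotype difference, -0.85 ± 0.89, became -4.43 (adjusted p = 0.0472) without M0_DMEM_KO replicate 2, the only library of its group with a count. With the group at 0, that value depends on the prior count and says nothing of its size.

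Mmp12, macrophage elastase, was the most counted member and took 1.42% to 1.52% of all counts in WT M2 DMEM libraries. These had 15770, 16210 and 16810 CPM, and WT M2 libraries in MPNST-CM had 5521, 6248 and 6257 CPM. KO M2 libraries had 9856, 9742 and 9773 CPM in DMEM and 1280, 1380 and 1296 CPM in MPNST-CM. Each of the M2 groups was clear of the others. M0 libraries of WT had 800.2, 1045 and 998 CPM in DMEM and 505, 655 and 608 CPM in MPNST-CM, and those of KO 590.4, 707 and 666 CPM and 181, 236 and 242 CPM. MPNST-CM lowered Mmp12 1.61-fold in WT M0, 2.98-fold in KO M0, 2.71-fold in WT M2 and 7.42-fold in KO M2 cells. The response was steeper in KO than in WT, by -0.89 ± 0.15 in M0 (adjusted p = 7.67e-05) and -1.46 ± 0.15 in M2 cells (adjusted p = 4.55e-08), and steeper in M2 than in M0 cells, by -0.75 ± 0.15 in WT and -1.32 ± 0.15 in KO. M2 exceeded M0 17.2-fold in WT and 14.96-fold in KO in DMEM, and the 8 means spanned 74.1-fold. The only neighbours in that order that overlapped were WT M0 in MPNST-CM and KO M0 in DMEM.

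Mmp14 encodes a membrane-anchored MMP that activates other MMP proenzymes on the cell surface. In WT M0 cells it had 7.85, 6.25 and 10.5 CPM in DMEM and 4.05, 3.11 and 3.77 CPM in MPNST-CM, and in KO M0 cells 17.3, 24.2 and 19.7 CPM and 0.999, 0.973 and 1.78 CPM, the last from 8, 8 and 14 counts. KO was therefore above WT in DMEM and below it in MPNST-CM, both without overlap. The responses of -1.17 ± 0.22 in WT and -4.01 ± 0.25 in KO differed by -2.84 ± 0.34 (adjusted p = 4.83e-07). In M2 cells WT had 21.5, 24.9 and 18.8 CPM in DMEM and 4.53, 5.86 and 5.03 CPM in MPNST-CM, and KO 7.505, 7.37 and 6.62 CPM and 1.85, 2.599 and 1.65 CPM. There KO was below WT in both media, and the responses, -2.08 ± 0.20 and -1.797 ± 0.25, were not called as different (0.28 ± 0.33, adjusted p = 0.632). M2 cells in DMEM exceeded M0 cells in WT (1.4 ± 0.19) and were below them in KO (-1.51 ± 0.20). The WT responses of M2 and M0 cells differed by -0.91 ± 0.30 (adjusted p = 0.0485), a call lost on leaving out any 1 of 9 libraries, namely M0_CM_wt replicate 1 or 3, M0_DMEM_wt replicate 1 or 2, M2_CM_wt replicate 1 or 3, or M2_DMEM_wt replicate 2, 3 or 4 (adjusted p of 0.0507 to 0.142).

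**Figure D3:**
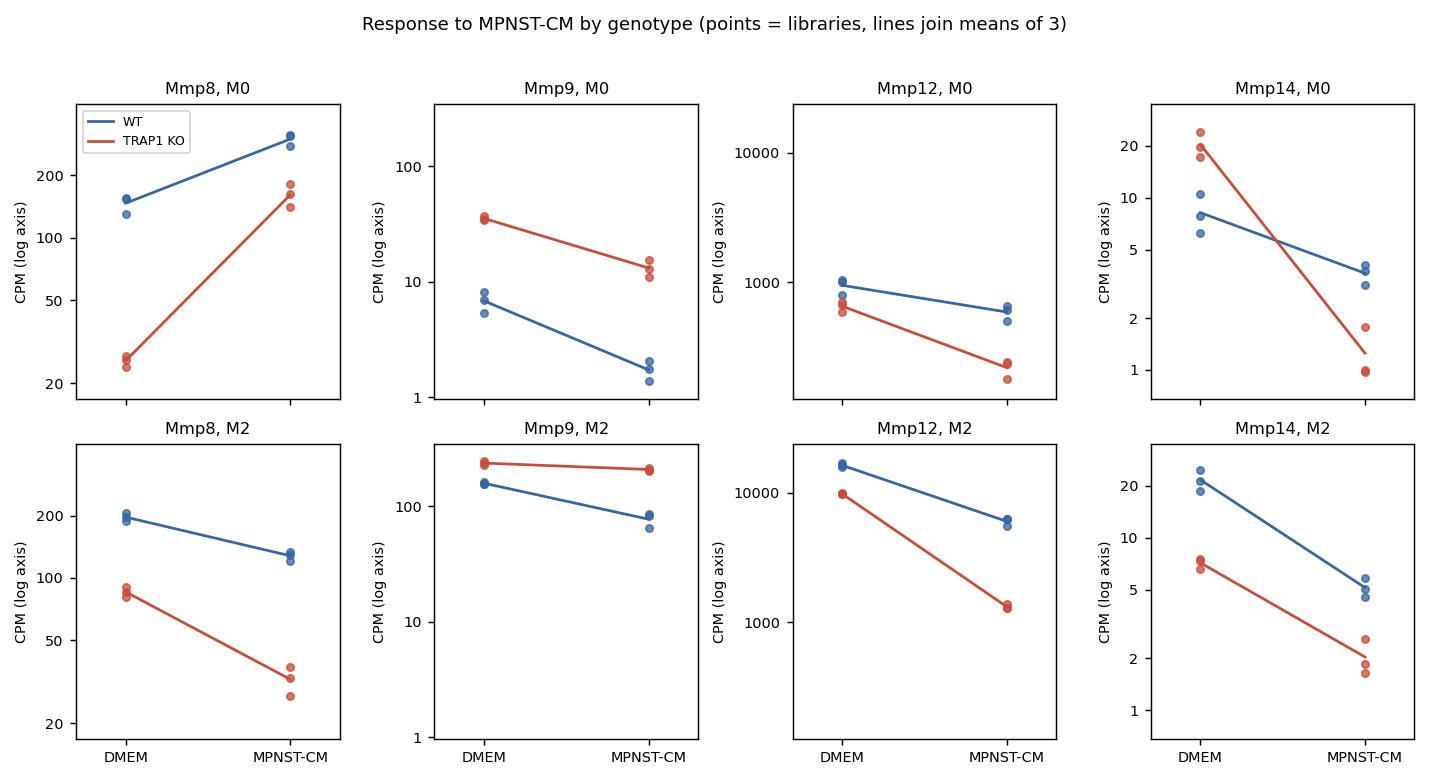
CPM of Mmp8, Mmp9, Mmp12 and Mmp14 in DMEM and MPNST-CM on log axes, M0 cells in the top row and M2 cells in the bottom row, with points for libraries and lines joining the means of 3 libraries (WT blue, TRAP1 KO red). The Mmp14 lines cross in M0 cells, and the Mmp12 lines fall more steeply in KO than in WT in both states.

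Mmp19, a secreted MMP that cuts basement membrane proteins, rose in MPNST-CM throughout. WT M0 libraries went from 1.84, 1.43 and 2.85 CPM to 5.79, 5.76 and 4.53 CPM, and KO M0 libraries from 1.38, 3.14 and 1.05 CPM to 11.5, 13.99 and 16.4 CPM. WT M2 libraries went from 8.41, 9.197 and 10.8 CPM to 32.6, 36.5 and 37.9 CPM, and KO M2 libraries from 8.55, 9.24 and 9.65 CPM to 27.8, 32.8 and 27.3 CPM. No pair of media overlapped, and the rise was 2.58-fold, 7.49-fold, 3.75-fold and 3.198-fold in that order. KO exceeded WT in M0 cells in MPNST-CM (1.38 ± 0.21, adjusted p = 7.18e-06), and the other 3 genotype differences were not called. The M0 interaction, 1.54 ± 0.39 (adjusted p = 0.00465), was lost without M0_DMEM_wt replicate 3 (1.21, adjusted p = 0.0507). The KO response was smaller in M2 than in M0 cells, with a difference of -1.23 ± 0.33, a call lost without M0_DMEM_KO replicate 1 (adjusted p = 0.0618) or without M0_DMEM_KO replicate 3 (adjusted p = 0.0706).

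Timp1, a secreted inhibitor of many MMPs, marked the cell state. M0 libraries had 3.68, 4.43 and 2.85 CPM in WT DMEM, 7.18, 4.61 and 6.04 CPM in WT MPNST-CM, 4.75, 4.06 and 3.68 CPM in KO DMEM and 3.87, 3.28 and 5.09 CPM in KO MPNST-CM. M2 libraries had 46.9, 41.8 and 40.1 CPM, 27.9, 28.8 and 32.2 CPM, 40.8, 42.9 and 34.1 CPM and 33.1, 32.9 and 28.7 CPM in the same order. Every M2 library was above every M0 library, and the M2 to M0 fold was 4.98 to 11.8. In WT the response was 0.71 ± 0.20 in M0 and -0.53 ± 0.14 in M2 cells, and these differed (-1.24 ± 0.24, adjusted p = 0.000773). Neither KO response was called. The WT M0 response was lost without M0_CM_wt replicate 1 (adjusted p = 0.0744) or without M0_DMEM_wt replicate 3 (adjusted p = 0.0823), and the WT M2 response without M2_CM_wt replicate 1 (adjusted p = 0.0509) or without M2_DMEM_wt replicate 2 (adjusted p = 0.0625). KO was below WT in M0 cells in MPNST-CM (-0.54 ± 0.19), a call lost without M0_CM_KO replicate 1 or 2 or M0_CM_wt replicate 1 or 3 (adjusted p of 0.0646 to 0.163). Calls were gained for the KO M2 response (adjusted p = 0.0784) without M2_DMEM_KO replicate 3 (adjusted p = 0.0475) and for the M0 interaction (adjusted p = 0.0721) without M0_CM_KO replicate 3, M0_CM_wt replicate 2 or M0_DMEM_wt replicate 2 (adjusted p of 0.0276 to 0.0416).

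Timp1 overlaps Syn1 on the X chromosome. The mean of Syn1 was 1.71 to 5.81 CPM in WT groups, 4.21 and 4.71 CPM in KO DMEM and 21.96 and 18.2 CPM in KO MPNST-CM, for M0 and M2 cells. The strand setting of the counting is not given in the sources used here, so it is not known whether reads of both genes were kept apart. Other members touch genes with few reads: Gm31751 (Mmp8) and Tmem198b (Mmp19) had at most 2 counts in a library, Cep295nl (Timp2) at most 12, and Syn3 (Timp3) at most 3.

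Timp2, which inhibits MMPs and also takes part in activation at the cell surface with the Mmp14 product, was abundant in all groups and had the smallest range of the tested members (2.58-fold). WT M0 libraries had 451, 355 and 372 CPM in DMEM and 492, 346 and 358 CPM in MPNST-CM, which overlapped. KO M0 libraries had 716, 624 and 637 CPM in DMEM and 499, 437 and 416 CPM in MPNST-CM. WT M2 libraries had 748, 721 and 751 CPM and 563, 547 and 501 CPM, and KO M2 libraries 973, 1087 and 981 CPM and 658, 603 and 658 CPM. Timp2 fell without overlap in KO M0 (-0.55 ± 0.11), WT M2 (-0.46 ± 0.11) and KO M2 cells (-0.66 ± 0.11), while the WT M0 change was 0.02 ± 0.11. The M0 responses differed between genotypes by -0.57 ± 0.15 (adjusted p = 0.00818), a call lost with only the compared groups in the fit (adjusted p = 0.06505). In DMEM KO was above WT by 0.75 ± 0.11 in M0 and 0.45 ± 0.11 in M2 cells. In MPNST-CM the differences of 0.18 ± 0.11 and 0.25 ± 0.11 were not called, although the former was without M0_CM_wt replicate 1 (0.35, adjusted p = 0.00571). WT responses of M2 and M0 cells differed by -0.48 ± 0.15 (adjusted p = 0.0385), a call lost without M0_CM_wt replicate 1, M0_DMEM_wt replicate 2 or 3, or any library of the WT M2 groups (adjusted p of 0.0502 to 0.143).

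Timp3, an inhibitor that binds to matrix and also blocks ADAM proteases, was under 3 counts in 19 of 24 libraries and was not tested. KO M2 cells in MPNST-CM had 5, 11 and 6 counts (0.661, 1.24 and 0.759 CPM), and theirs was the only group with 3 or more in every library. The matching WT group had no count in its libraries. Each of the other groups held at most 3 counts per library.

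Of the 17 other Mmp and Timp genes in the table, Mmp25 and Mmp27 were tested and Timp4 had no count. Mmp27, the neighbour of Mmp8 in the cluster, rose in all 4 responses to MPNST-CM, was higher in KO than in WT in all 4 comparisons, and was lower in M2 than in M0 cells in all 4. Its mean was 10.5 ± 1.33 CPM (SD, n = 3) in WT M0 DMEM, 22.97 ± 3.67 in WT M0 MPNST-CM, 16.9 ± 2.38 in KO M0 DMEM and 36.7 ± 2.48 in KO M0 MPNST-CM. In M2 cells the means in the same order were 5.46 ± 0.36, 16.8 ± 2.11, 9.41 ± 0.89 and 23.6 ± 2.104 CPM. Mmp27 and Mmp8 thus moved the same way with MPNST-CM in M0 cells and opposite ways in M2 cells and between genotypes. Mmp25 rose with MPNST-CM in KO M2 cells, from 0.8303 to 5.79 CPM (2.76 ± 0.39), and its other 3 responses were not called. Mmp2 had at most 6 counts in a library, and Mmp3 and Mmp7 at most 1.

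Other genes of the pathway were taken from lists. Of 21 genes that activate or restrain MMPs, 10 were tested. MPNST-CM raised 2 in WT M0 cells, raised 4 and lowered 1 in KO M0 cells, raised 2 and lowered 3 in WT M2 cells and raised 3 and lowered 5 in KO M2 cells, against 21.2%, 32.9%, 24.5% and 36.8% of all genes called. The medians were 0.08, 0.04, -0.23 and -0.43. Thbs1, thrombospondin 1, a matrix protein that interacts with MMPs, rose from 16.8 ± 0.47 to 146 ± 19.4 CPM in WT M0 and from 16.4 ± 4.23 to 1878 ± 366 CPM in KO M0 cells. In M2 cells Thbs1 rose from 12.6 ± 1.42 to 386 ± 18.6 CPM in WT and from 12.5 ± 1.04 to 2520 ± 113 CPM in KO, and the KO and WT levels in DMEM were not called as different, with interactions of 3.72 ± 0.21 in M0 and 2.72 ± 0.22 in M2 cells. Serpinb2, an inhibitor of plasminogen activators, was 11.8-fold higher in KO than in WT M0 cells in MPNST-CM (18.8 against 1.57 CPM). Plau, urokinase, was 3.44-fold lower in KO than in WT M2 cells in MPNST-CM, and its receptor gene Plaur 1.76-fold lower.

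Of 18 ADAM and ADAMTS proteases, 9 were tested. MPNST-CM raised 1 and lowered 3 in WT M0 cells, raised 2 and lowered 5 in KO M0 cells, lowered 4 in WT M2 cells and raised 2 and lowered 4 in KO M2 cells, against 21.2%, 32.9%, 24.5% and 36.8% of all genes called. The medians were -0.23, -0.79, -0.24 and -0.22. In WT M2 cells Adam17, the protease that releases TNF from the cell surface, fell from 334 ± 27.2 to 224 ± 31.8 CPM, Adam19 fell 2.09-fold and Adamts10 1.68-fold. Adam33 was 2.95-fold higher in KO than in WT M2 cells in MPNST-CM. Of 18 matrix genes, which include MMP substrates, 7 were tested. MPNST-CM raised 2 and lowered 1 in WT M0 cells, raised 3 in KO M0 cells, raised 2 and lowered 1 in WT M2 cells and raised 2 and lowered 1 in KO M2 cells, against 21.2%, 32.9%, 24.5% and 36.8% of all genes called. The medians were 0.47, 0.52, 0.11 and -0.11. In WT M2 cells Vcan, the proteoglycan versican, rose from 7.92 ± 0.74 to 80.7 ± 7.896 CPM, Col18a1 rose 4.52-fold, and Fn1, fibronectin, fell from 182 ± 5.29 to 20.1 ± 0.83 CPM. Lamc1 was 1.28-fold higher in KO than in WT M0 cells in MPNST-CM.

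Of 14 AP-1 and Ets transcription factors, 13 were tested. MPNST-CM raised 4 and lowered 2 in WT M0 cells, raised 6 and lowered 2 in KO M0 cells, raised 2 and lowered 3 in WT M2 cells and raised 6 and lowered 2 in KO M2 cells, against 21.2%, 32.9%, 24.5% and 36.8% of all genes called. The medians were 0.10, 0.66, 0.02 and 0.03. In WT M2 cells Ets2 rose from 43.1 ± 4.95 to 147 ± 4.303 CPM and Atf3 fell from 497 ± 9.07 to 201 ± 25.1 CPM. In M0 cells in MPNST-CM, Fosl2 was 3.37-fold and Fos 2.55-fold higher in KO than in WT. Mmp10, Mmp12 and Mmp13, whose printed sequences hold TGANTCA, were lower in KO there. So were Mmp8, Mmp14 and Timp1, in which the motif was not found, while Mmp9 and Mmp19, without a promoter entry, were higher. The Mmp10 and Timp1 differences lost their calls without single libraries, as given above. The part of Fosl2 and Fos in the levels of the members was not tested. In M0 cells in DMEM both factors were lower in KO, with log2 fold changes of -0.51 ± 0.10 for Fosl2 and -1.51 ± 0.17 for Fos.

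For each of the 8 members with at least 10 CPM in some group, the 2 genes with the highest Pearson r of log2 CPM over the 24 libraries are named as a description, since these libraries form 8 groups. Mmp12 was most like Itgax, the integrin CD11c (r = 0.991), and F2rl2 (r = 0.989). Itgax went from 9.28 CPM in KO M0 MPNST-CM to 1492 CPM in WT M2 DMEM, the groups where Mmp12 was lowest and highest. Timp1 was most like Chil3 (r = 0.974) and Retnla (r = 0.971), well-known genes of the IL-4 response, whose M0 means were at most 1.52 CPM. Mmp19 was most like Cd164 (r = 0.96) and Ccr7 (r = 0.956), and Timp2 like Gng11 (r = 0.958) and Ahnak2 (r = 0.952). Mmp9 was most like Cd200r4 (r = 0.957) and Ctss, cathepsin S (r = 0.939), and Mmp13 like Cdh1, E-cadherin (r = 0.953), and Serpinb9b (r = 0.952). Mmp14 was most like C3 (r = 0.952), which was also highest in WT M2 DMEM and KO M0 DMEM (189.6 and 178 CPM), and Zmiz1 (r = 0.918). Mmp8 had the lowest values, with Ezr (r = 0.878) and Abcc4 (r = 0.859). Within the family r was 0.932 for Mmp13 with Timp1, 0.859 for Mmp12 with Timp1, 0.839 for Mmp9 with Timp2 and -0.501 for Mmp8 with Mmp9. With a prior count of 0.5 in place of 2, Ccr7 ranked 3 for Mmp19 and Chil3 ranked 4 for Timp1, and the other genes named stayed at rank 1 or 2.

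**Figure D4:**
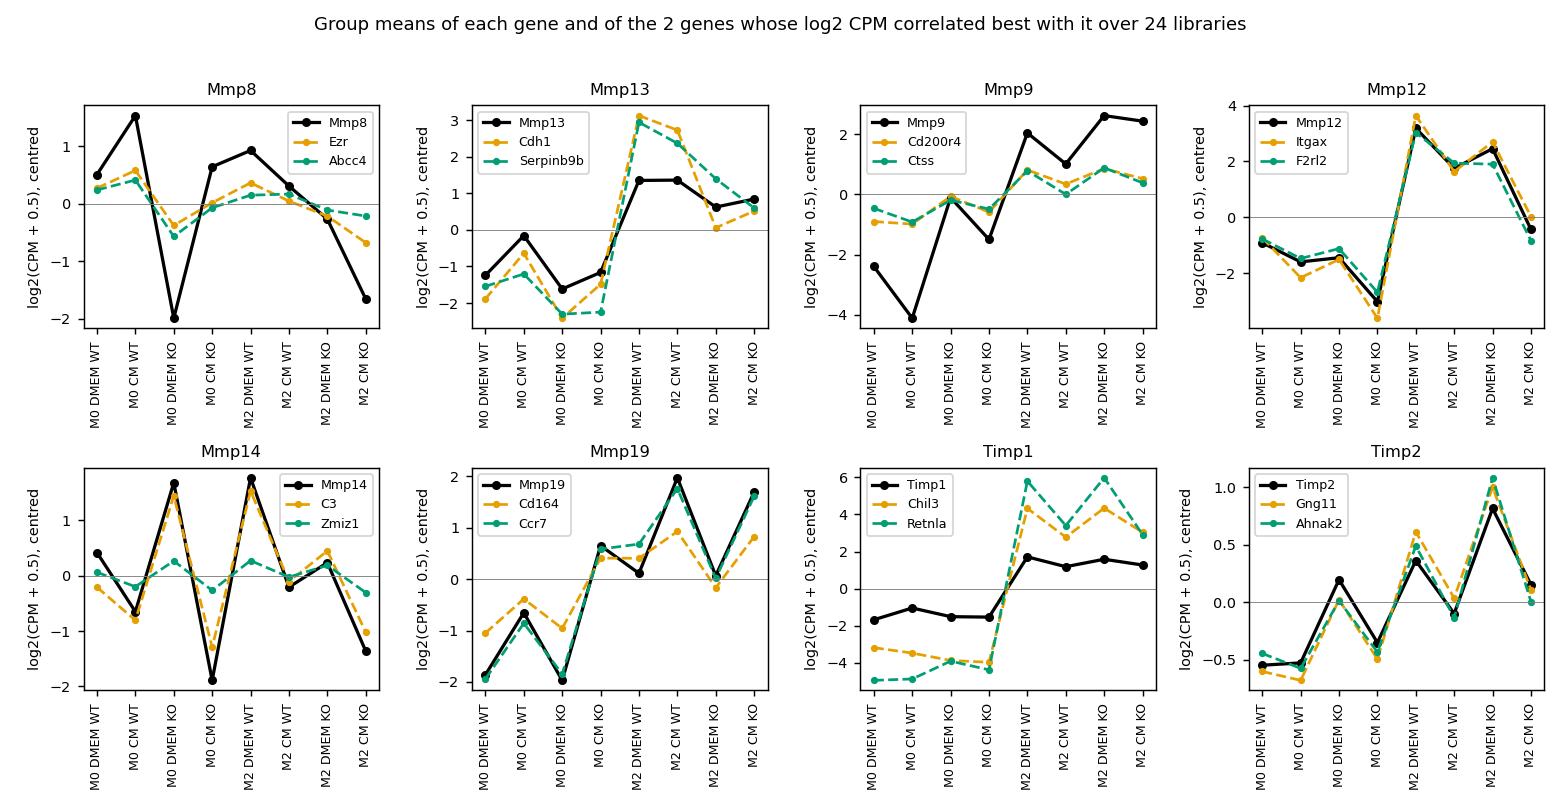
Group means of log2(CPM + 0.5), centred on the mean of the 8 groups, for 8 members and the 2 genes of highest Pearson r with each, with the groups on the horizontal axis and the member as the black line. Itgax and F2rl2 run close to Mmp12 (r of 0.991 and 0.989), while Ezr and Abcc4 follow Mmp8 less closely (r of 0.878 and 0.859).

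Osteoclasts, which form by fusion from the same precursors, also express Mmp9, Mmp12 and Mmp14, and their markers moved with cell state. Of 7 osteoclast markers 5 were tested, and all 5 were higher in M2 than in M0 cells in all 4 comparisons (where 37.2%, 28.5%, 24.9% and 11.2% of all genes were called) and fell with MPNST-CM in both M2 responses (24.5% and 36.8%). The 7 markers summed to 106 to 124 CPM in WT M0 DMEM, 87.5 to 91.5 in WT M0 MPNST-CM, 177 to 188 in KO M0 DMEM and 51.2 to 58.5 in KO M0 MPNST-CM. In M2 cells they summed to 1736 to 1757, 974 to 1043, 1242 to 1386 and 371 to 409 CPM in the same order. The defining markers Calcr and Oscar never passed 1 and 4 counts. Dcstamp and Ocstamp, needed for the fusion of macrophages, were 7.13-fold and 30.5-fold lower in KO than in WT M2 cells in MPNST-CM, and Atp6v0d2 1.82-fold lower, while Acp5 fell 1.84-fold with MPNST-CM in WT M2 cells. The part of these markers in the levels of Mmp9, Mmp12 and Mmp14 was not tested. Among macrophage markers, Mrc1 rose 3.77-fold with MPNST-CM in WT M2 cells and Mertk fell 1.65-fold in WT M0 cells, while Fcgr1 was 5.72-fold (M2) and Itgam 1.74-fold (M0) higher in KO than in WT in MPNST-CM. Csf3r, a neutrophil marker, fell 4.17-fold with MPNST-CM in WT M2 cells.

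Batch 2 was left out of the comparisons above. Its libraries labelled M2_DMEM_KO_4 and M2_CM_KO_4 had 2 and 0 counts of Trap1, but 4220 and 2962 of Xist, unlike the batch 1 KO libraries. The library labelled M2_DMEM_KO_4 had 452 CPM of Mmp12, 6.41 of Mmp9 and 5.93 of Timp1, against 9544 to 9681, 226 to 241 and 33.5 to 41.98 CPM in its batch 1 group. The library labelled M2_CM_KO_4 had 4630 CPM of Mmp12 and 138 of Mmp9, against 1279 to 1373 and 204 to 215 CPM. The remaining library, labelled M0_DMEM_wt_4, also lay outside its batch 1 group in some members. It had 68.6 CPM of Mmp8, 543 of Mmp12 and 3.29 of Mmp14, against 130.9 to 157.5, 806 to 1048 and 6.27 to 10.56 CPM. Its Timp2, at 397 CPM, lay within the 356.5 to 454 CPM of that group. Batch and library differ together here and cannot be told apart. With all 27 libraries in the fit, 49 of the 107 calls among the 144 member values (9 genes in 16 comparisons) were lost. With M2_DMEM_KO_4 and M2_CM_KO_4 left out of that fit, 2 were lost.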

How the data were processed

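Bulk RNA of the 8 groups was sequenced from the 3′ end with a kit that keeps strand (QuantSeq). Per the paper's methods and the labels, the authors trimmed reads with Trimmomatic, checked them with FastQC, aligned them with HISAT2, kept reads of mapping quality 20 or more with SAMtools and counted genes with featureCounts. The deposited values are these raw counts per gene, not normalized. The labels name mm39 and the paper mm10, and the annotation, tool versions and strand setting are not given in the sources used here. Of 32 columns, 27 matched a described library and 5 did not and were not used.

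The 24 batch 1 libraries (7037684 to 9089792 counts) were fitted together in edgeR 4.0.16 (R 4.3.3, limma 3.58.1) with 1 mean per group, TMM scaling, a filter by group (minimum 10 counts, 1.27 CPM; 13614 of 50559 genes kept) and robust quasi-likelihood tests, with Benjamini-Hochberg adjustment over all genes tested. Fold changes are fitted values with SE. Group values are mean ± SD of CPM. Limits at 3 counts cover counting error only. The 10 members were always named. Of each other list, up to 4 genes were named that were called in a WT response to MPNST-CM or in KO against WT in MPNST-CM with at least 10 CPM, by size of change, and Mmp25, S100a9, Ly6g, Syn1 and the other overlapping genes, and further values of genes so named, were added after their values were seen. The members and lists were chosen with earlier results of these data known. Alternatives were DESeq2 1.42.0, median-of-ratios scaling, no filter, only the groups compared, a replicate block, batch 2 included, and each library left out. Scripts were tested on simulated data. Chi-square per degree of freedom was at least 2.11 in the 24 replicate pairs within batch 1 groups, so none of these pairs was counted as 1 library; other pairs were not compared. Promoters came from RefSeq (GRCm38.p6), so their positions are not in the build of the counts.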

Additional observations from a re-analysis of the deposited data

Results flagged for a closer look

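With batch 2 included, 3 groups hold 4 libraries, and 9 of 26 sets of 4 values had 1 library far from the other 3. Chance alone gives this for about 1 in 20 sets, but these sets are different genes in the same libraries and are not independent trials. The library labelled M2_DMEM_KO_4 had Mmp8 at 144 CPM against 79.6 to 88.4, Mmp9 at 6.41 CPM against 226 to 241, Mmp12 at 452 CPM against 9544 to 9681, Mmp19 at 28.8 CPM against 8.404 to 9.49 and Timp2 at 316 CPM against 956 to 1065 in the other 3. The library labelled M2_CM_KO_4 had Mmp8 at 98.1 CPM against 27.1 to 37.2, Mmp9 at 138 CPM against 204 to 215 and Mmp12 at 4630 CPM against 1279 to 1373. In the same group M2_CM_KO_3 had Mmp10 at 1.51 CPM against 0.787 to 0.831 CPM. The 2 libraries of batch 2 also differ from the rest of their groups in Xist, and neither was used in the comparisons.

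Responses that differed between groups by an interaction in edgeR's quasi-likelihood test are listed by contrast. Between genotypes in M0 cells (KO minus WT), the response to MPNST-CM differed on the log2 scale by 1.63 for Mmp8 (adjusted p = 4.09e-09), -0.89 for Mmp12 (adjusted p = 7.67e-05), -0.64 for Mmp13 (adjusted p = 0.00347), -2.84 for Mmp14 (adjusted p = 4.83e-07), 1.54 for Mmp19 (adjusted p = 0.00465) and -0.57 for Timp2 (adjusted p = 0.00818). Between genotypes in M2 cells it differed by -0.78 for Mmp8 (adjusted p = 0.000313), 0.85 for Mmp9 (adjusted p = 0.000131) and -1.46 for Mmp12 (adjusted p = 4.55e-08). Between cell states in WT (M2 minus M0) it differed by -1.65 for Mmp8 (adjusted p = 1.94e-08), 0.94 for Mmp9 (adjusted p = 0.00658), -0.75 for Mmp12 (adjusted p = 0.00111), -1.096 for Mmp13 (adjusted p = 6.19e-06), -0.91 for Mmp14 (adjusted p = 0.0485), -1.24 for Timp1 (adjusted p = 0.000773) and -0.48 for Timp2 (adjusted p = 0.0385). Between cell states in KO it differed by -4.05 for Mmp8 (adjusted p = 2.65e-16), 1.24 for Mmp9 (adjusted p = 3.58e-06), -1.32 for Mmp12 (adjusted p = 4.11e-07), 2.22 for Mmp14 (adjusted p = 0.0001199) and -1.23 for Mmp19 (adjusted p = 0.0123). The calls for Mmp14 and Timp2 in WT and for Mmp19 in both of its contrasts were lost without single libraries. The call for Timp2 between genotypes in M0 cells was lost with only the compared groups in the fit.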

How the results depend on the processing

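No called value changed sign in any alternative. Of 107 calls, 93 held in every setting but the 27 libraries. The 107 calls, and the WT M2 counts below, include calls of Mmp10 that use the WT M2 MPNST-CM group, which the filter favoured. With Mmp10 the main fit called 8 members for the WT M0 response, 7 for KO M0, 8 for WT M2 and 5 for KO M2. For KO against WT it called 6 in M0 DMEM, 8 in M0 MPNST-CM and 6 in M2 DMEM. Its interaction counts were 6 (genotype, M0), 3 (genotype, M2), 7 (state, WT) and 5 (state, KO). Adding the 3 batch 2 libraries gave these counts of members called, Mmp10 included, without and with batch as covariate: 4 for the WT M0 response (with covariate it moved less than 1.5 times), 4 and 4 for KO M0, 3 and 3 for WT M2, 2 and 2 for KO M2, 3 and 2 for KO against WT in M0 DMEM, 5 in M0 MPNST-CM and 2 and 3 in M2 DMEM. For the interactions they were 1 and 1 (genotype, M0), 0 and 0 (genotype, M2), 1 and 2 (state, WT) and 2 and 2 (state, KO). Calls over all genes fell in the same fits, without covariate from 2889 to 958 for the WT M0 response and from 5016 to 826 for KO M2. For the counts of 0, edgeR gave an unadjusted p under 0.05 for 2 members and 1 and called 180 and 269 of all genes, and no other tool was run on these libraries. Without M2_DMEM_KO_4 and M2_CM_KO_4, an alternative chosen after seeing the data, every count stayed within 1.5 times, and 2 calls were lost (Mmp12 and Mmp13, KO against WT in M0 DMEM, adjusted p = 0.0672 and 0.0736). Mmp14 in the WT state interaction was lost with DESeq2, median-of-ratios scaling and no filter (adjusted p = 0.0529, 0.0518 and 0.103), and Mmp10 between KO M2 and M0 in DMEM with no filter (adjusted p = 0.0505). Fitting only the groups compared lost 6 calls and gained 2 among 133 values, and 3 more calls, all of Mmp10, could not be made because it failed the filter there. Lost were Timp1 in the WT M0 response (adjusted p = 0.0975) and between genotypes in M0 MPNST-CM (0.1126), and Mmp13 between genotypes in M0 DMEM (0.0618). Also lost were Timp2 in the M0 genotype interaction (0.06505), and Mmp14 and Timp2 in the WT state interaction (0.0997 and 0.1899). Leaving out 1 library lost 40 and gained 8 of 1080 values. The cause was not tested. The alternatives moved the median of all genes by -0.08 to 0.08 (log2). Depth limits Mmp10 and Timp3.

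Same-numbered libraries had deviations with a mean correlation of 0.107 (-0.21 to 0.52, 77 pairs), against -0.05 for other numbers, and 14 of 24 libraries matched their own number best, a hint of a shared factor. Because not every pair passed 0.1 and the labels name no shared source, numbers were not taken to pair libraries. With a replicate block, 7 members were called between KO and WT M2 cells in MPNST-CM (Timp2 added, adjusted p = 0.0184) and 6 in the KO M2 response (Mmp13 added, adjusted p = 0.0498), and no other call changed.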
